A study of Mus musculus with 5 samples.

Results

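The cells described here are 720 T cell barcodes, out of 25623 in the series, that held UMIs (unique molecular identifiers, 1 per captured RNA molecule) of 2 or 3 out of 8 genes switched on by the T cell receptor (TCR). The 8 genes were Nr4a1, Nr4a2, Nr4a3, Egr1, Egr2, Egr3, Irf4 and Il2ra. Members were thus selected on measured values, and the levels of these 8 genes are no finding. Their barcodes end in 1 or 3 in an aggregated matrix called G here, which are called library 1 and library 3. A barcode was eligible with at least 500 UMIs, at least 300 genes, at most 10% mitochondrial UMIs, no UMI of Foxp3 or Trdc, and at least 1 UMI of Cd3d, Cd3e or Cd3g. Library 1 held 335 members among 4080 eligible barcodes (8.21%, exact binomial 95% interval 7.39 to 9.10). Library 3 held 385 among 5136 (7.50%, interval 6.79 to 8.25).

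The study profiled CD4 T cells of the OT-II strain, whose transgenic TCR recognises an ovalbumin (OVA) peptide on MHC class II, by 10x Genomics 5′ single-cell RNA sequencing. The T cells were taken from the spleen of a naive mouse by negative selection, and antigen-presenting cancer-associated fibroblasts (apCAFs), sorted by flow cytometry, came from pancreatic tumors of a clone labelled sKPC or rKPC. The 5 groups, of 1 sample each, were OT-II cells alone, and OT-II cells after overnight coculture with sKPC apCAFs and DMSO, sKPC apCAFs and OVA, rKPC apCAFs and DMSO, or rKPC apCAFs and OVA. The labels tie 2 samples to matrix G and 3 to the other matrix, called H, whereas the barcodes of G carried 3 endings and those of H carried 2. None of the sources used here ties an ending to a sample. The treatment of library 1 and of library 3 is therefore not known, both are left unassigned, and each is given by its own values with no comparison of treatments. Cells of 1 library are not replicates, so no p-value is given. Intervals are 95% and cover counting error only.

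A T cell whose receptor meets its peptide on MHC class II activates kinases, calcium signaling and NF-kB. The Nr4a and Egr genes are immediate early genes, transcribed within minutes to hours and short-lived as RNA. Irf4 encodes a transcription factor whose amount follows TCR signal strength, and Il2ra the high-affinity chain of the interleukin 2 receptor, and both build up over hours. Antigen-activated T cells then take up amino acids, make ribosomes under Myc, and lose the adhesion and homing molecules of the naive state.

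The number of the 8 genes held per barcode had most barcodes at 0 and a long tail with no gap at the limits of the rule. Of the eligible barcodes, 2519 in library 1 and 3342 in library 3 held none, and 674 and 823 held exactly 1. Exactly 2 were held by 217 and 239, exactly 3 by 118 and 146, and exactly 4 by 106 and 143. The strong responders, with 4 or more, numbered 552 and 586. Members are thus a range on a count of detected genes, not a cell type with a border of its own, and their values below describe that range.

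**Figure D1:**
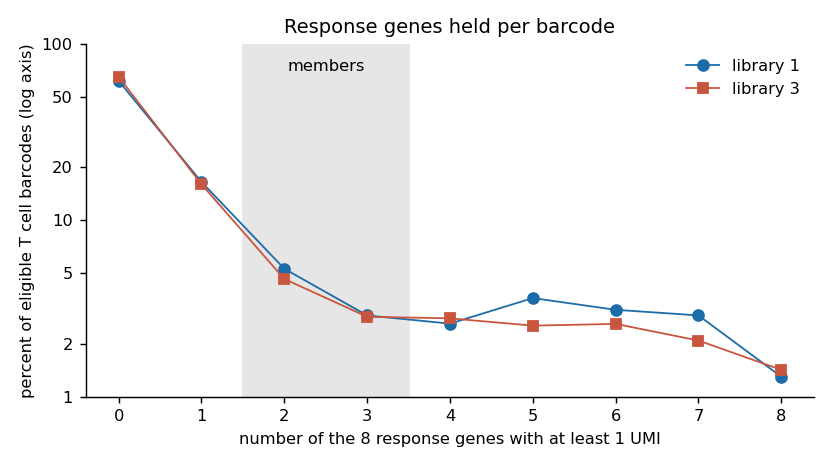
Percent of eligible T cell barcodes (y, log axis) by the number of the 8 response genes with at least 1 UMI (x), with library 1 as circles and library 3 as squares. The shaded band marks the 335 and 385 members; the share falls from 61.7% and 65.1% at none to 2.89% and 2.84% at 3 genes and lies between 1.30% and 3.63% from 4 to 8 genes.

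Among the 8 genes, members held mainly the 2 slower ones. Irf4 had a UMI in 71.0% of members of library 1 and 71.2% of library 3, and Il2ra in 67.5% and 65.7%. Nr4a1 followed at 32.2% and 30.1% and Egr1 at 25.1% and 28.8%. Egr3 was found in 5.67% and 5.19%, and Egr2 in 7.16% and 4.68%. The pair Irf4 and Il2ra without any other of the 8 made up 105 members of library 1 and 108 of library 3. These shares are set by the rule and are given as a description.

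The values just outside and just inside the limits of the rule are given for 3 genes. The chemokine receptor gene Ccr7 stood at 307 CPM (UMIs of the gene per 1000000 UMIs of the class) with 1 gene held, 890.2 with 2, 915 with 3 and 823 with 4 in library 1. In library 3 the same series was 288, 789, 776 and 939. Bcat1, an enzyme of branched-chain amino acid metabolism, went from 9.17 to 96.0, 146 and 182 CPM in library 1, and from 8.25 to 73.4, 104 and 219 in library 3. As a fold between neighbouring numbers of genes held, both genes stepped up most at the lower limit of the rule. At the upper limit Ccr7 stayed near its level in members, and Bcat1 kept climbing. The interleukin 7 receptor gene Il7r went the other way, at 801, 322, 163 and 100.1 CPM in library 1 and 712, 371, 114 and 89.3 in library 3.

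Members with 3 of the 8 genes stood further from barcodes with none than members with 2 on several lists. The interferon gamma response list (genes induced by that cytokine) summed to 2099.6 CPM with 2 genes and 1197 with 3 in library 1, and to 2750.0 and 1632 in library 3. The guanylate-binding protein gene Gbp2, of that list, went from 167 CPM with 1 gene to 121 with 2 and 34.5 with 3 in library 1, and from 254 to 191 and 96.1 in library 3. Ribosome biogenesis genes went from 2969.8 CPM with 2 genes to 3837 with 3 in library 1 and from 2629 to 3810.4 in library 3. In sum the cytokine list did not follow, at 728 and 695 CPM in library 1 and 717 and 691 in library 3.

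**Figure D2:**
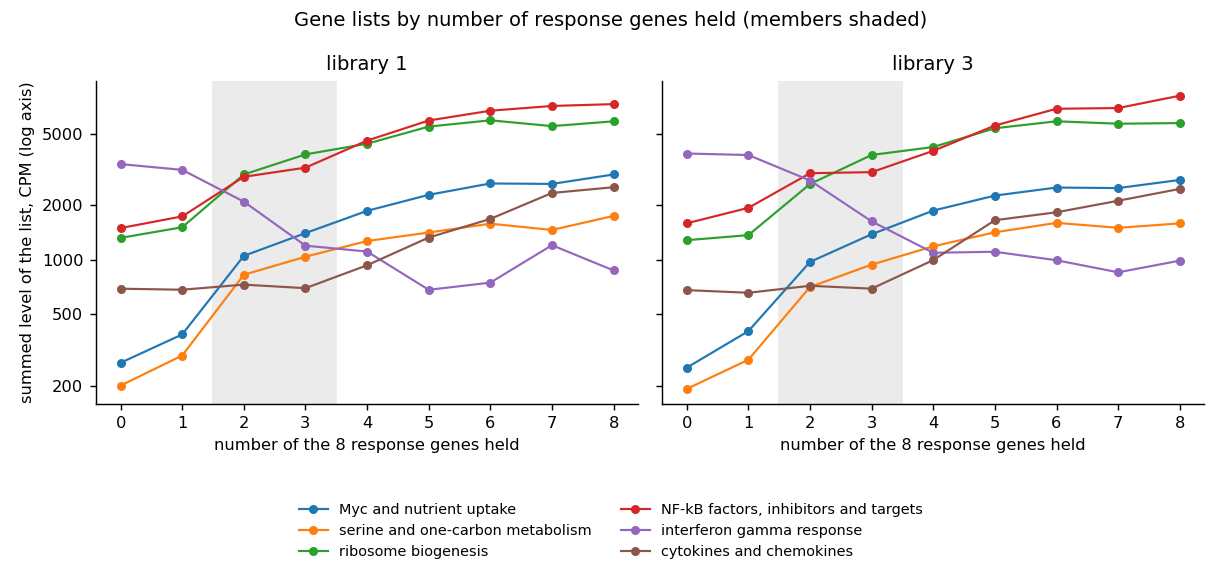
Summed level in CPM (y, log axis) of 6 gene lists by the number of the 8 response genes held (x), with library 1 on the left, library 3 on the right and the members shaded. The growth and NF-kB lists climb through the shaded band, the interferon gamma list falls through it, and the cytokine list is flat up to 3 genes and climbs from 4.

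Some facts of the libraries bear on every value. Members were deeper than barcodes with none of the 8 genes and shallower than strong responders: the median was 8102, 9669 and 11199.5 UMIs in the 3 classes of library 1 and 7959, 9480 and 10830 in library 3. A deeper barcode can show more of the 8 genes. Comparisons between cells below use list counts thinned to 3000 UMIs, but keep the classes as formed at full depth. Classes formed after thinning held 303 and 335 members. The deepest members held 46094 UMIs in library 1 and 237972 in library 3. Results that rest largely on 1 barcode are marked where this was seen, and others may do so too. RNA free in the droplets was checked in barcodes rich in hemoglobin, searched for in libraries 1 and 3 only. Of these, 10 were found over both, with a median of 4079.5 UMIs. None held 2 or 3 of the 8 genes (interval up to 30.8%), 5 held no gene of the 8 (50%, interval 18.7 to 81.3), and the others held 1 gene or at least 4. Libraries 1 and 3 shared 14 barcode sequences, and 1 of them was a member in both.

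As labelled, members carried T cell transcripts: Trac stood at 9712 CPM in library 1 and 4493 CPM in library 3. Of the CD8 T cell markers, Cd8a had no UMI in any member. Eomes, on the same list, was higher in members than with none, at 14.5 against 1.12 CPM in library 1 and 14.4 against 1.86 in library 3. Its UMIs came from 20 members in each library. The OT-II receptor uses the beta chain segment Trbv12, and Trbv12-1 with Trbv12-2 (near-identical copies) took 67.3% of the members' Trbv UMIs in library 1 (99 of 147, interval 59.1 to 74.8) and 53.5% in library 3 (85 of 159, interval 45.4 to 61.4). Barcodes with none of the 8 genes had 61.6% and 52.6%, inside those intervals. Cd4, the coreceptor gene, was lower in members, at 102 CPM in library 1 and 106 CPM in library 3 against 226 and 225 CPM with none, and lower again in strong responders at 60.3 and 60.6. Its log2 ratio of members over none was -1.15 and -1.08, and -0.96 and -0.89 among barcodes of 6000 to 12000 UMIs. A UMI of Cd4 was found in 50.4% of members of library 1 and 50.4% of library 3. With none of the 8 genes the shares were 71.6% and 70.1%, and in strong responders 32.4% and 33.6%. Of the 5 genes proposed as markers of these cells, Egr1 and Egr3 belong to the rule, which leaves Ccr7, Lad1 and Itm2a.

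Ccr7 differed in members from both other classes. It encodes the chemokine receptor that guides T cells into lymph nodes. It stood at 223, 899.6 and 359.6 CPM in barcodes with none, members and strong responders of library 1, and at 222, 783 and 431 in library 3. Members were the highest of the 3 classes in both libraries, and further values given in threes keep this order of classes. The log2 ratio of members over none was 2.01 (95% interval 1.94 to 2.08) in library 1 and 1.82 (95% interval 1.76 to 1.88) in library 3, and that of strong responders over members was -1.32 (95% interval -1.40 to -1.25) and -0.86 (95% interval -0.93 to -0.79). With a UMI of Cd4 also required, the last ratio in library 1 was -0.88. The gene lies on chromosome 11, from 99144196 to 99155077 (GRCm38, minus strand).

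Lad1 and Itm2a were far above barcodes with none. Lad1, which encodes ladinin, an anchoring filament protein, was at 3.16 CPM with none, 137 in members (interval 125 to 149.8) and 111 in strong responders of library 1. In library 3 it was at 1.90, 98.0 (interval 88.6 to 108) and 118. Members already reached the level of strong responders, and which of the 2 classes was higher differed between the libraries. Itm2a, a membrane protein gene induced in activated T cells, climbed in steps of 43.1, 225 and 372 CPM in library 1 and 39.5, 180.1 and 351 in library 3.

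Across all genes with at least 50 UMIs over both classes, outside the genes of the rule and its filters, 1003 of 11310 (8.87%) were at least 2-fold higher in members than in barcodes with none in library 1, and 772 (6.83%) at least 2-fold lower. In library 3 these were 1265 of 11889 (10.6%) and 661 (5.56%). In both libraries at once, 700 of 11232 genes (6.23%) were higher and 370 (3.29%) lower. The median log2 ratio over all genes was 0.03 and 0.06. The higher count of library 3 rests partly on few barcodes: it was 791 without, for each gene, the barcode with most of its UMIs, 780 without barcodes that held 10 or more UMIs of another cell type's markers, and 767 without the 6% deepest barcodes. In library 1 the same alternatives gave 830, 927 and 787, against 1003. The top barcode was left out of each class, which takes more from a small class than from a large one. With classes and levels both taken from counts thinned to 3000 UMIs, the lower counts were 1251 and 1083. The number of genes tested under each of these alternatives was not recorded, so the counts are not shares.

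From members to strong responders, 332 of 9494 genes (3.5%) were at least 2-fold higher and 868 (9.14%) lower in library 1. In library 3 these were 348 (3.48%) and 904 (9.03%) of 10006, and in both libraries 205 (2.18%) and 443 (4.71%) of 9402. The rule itself separates the classes, so these shares serve only as a background for the lists that follow.

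Genes with the largest ratios, taking the less extreme of the 2 libraries, included Bcat1, Tnnt2, Slc6a9, AA467197, Cdkn1a, Asns and Mir155hg. Bcat1 went from 1.46 CPM with none to 115 in members of library 1 and from 1.27 to 86.0 in library 3, with log2 ratios of 6.28 (95% interval 5.76 to 6.89) and 6.07 (95% interval 5.58 to 6.64). It was the top gene by this measure, and strong responders were higher still at 319 and 302. Mir155hg, the host transcript of the microRNA miR-155, was at 12.9, 344 and 743 CPM in the 3 classes of library 1 and 12.6, 298 and 727 in library 3. Tnnt2, a troponin gene of heart muscle, was at 1.17, 56.8 and 51.7 CPM in library 1 and 0.967, 45.1 and 55.5 in library 3, and so, like Lad1, was not higher in strong responders than in members of library 1. Slc6a9, a glycine transporter gene, was at 0.826, 30.1 and 26.3 CPM in library 1 and 0.447, 15.8 and 30.0 in library 3. Asns, which makes asparagine, was at 0.778, 27.8 and 21.1 CPM in library 1 and 0.633, 17.5 and 18.9 in library 3. Cdkn1a, the gene of the cell cycle inhibitor p21, was at 0.632, 38.6 and 114 CPM in library 1 and 0.893, 27.5 and 107 in library 3, stepping up again in strong responders.

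**Figure D3:**
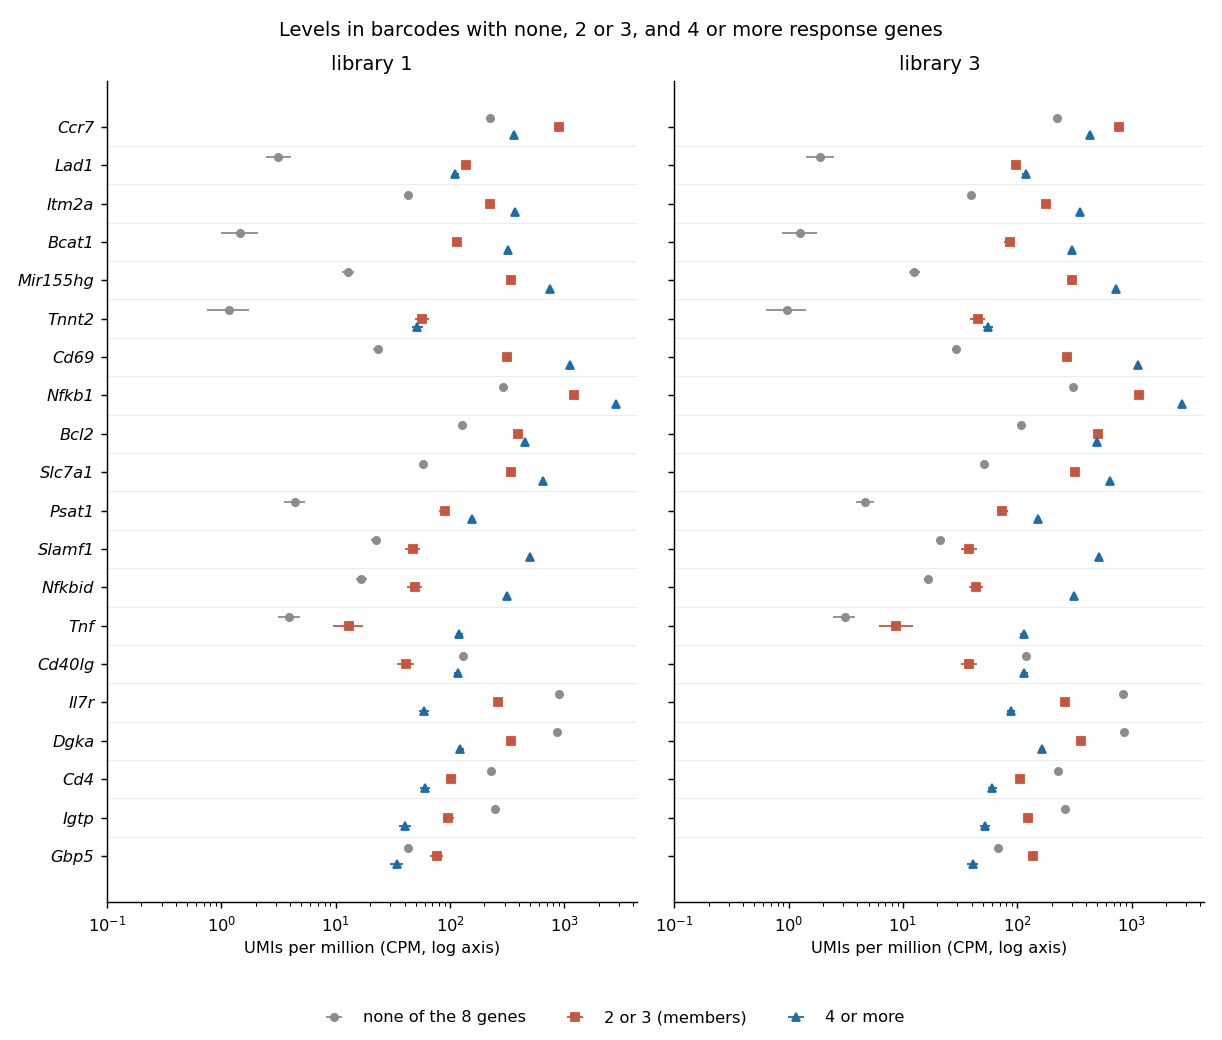
Level of 20 genes in CPM (x, log axis) in barcodes with none of the 8 response genes (circles), members (squares) and strong responders (triangles), by library, with bars for exact Poisson 95% intervals. For most genes the members lie between the other 2 classes; in both libraries Ccr7 and Gbp5 are highest in members and Cd40lg is lowest in them.

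Most of the surface receptors of activation were at least 2-fold higher in members. Of 11 receptor genes, 7 were at least 2-fold higher and 1 lower in each library, with median log2 ratios of 1.14 and 1.94. Cd69, an early activation antigen that holds T cells in tissue, was at 23.3, 315 and 1119 CPM in none, members and strong responders of library 1 and 29.3, 270.2 and 1129.6 in library 3. Cd5, an inhibitory coreceptor whose amount follows TCR signaling, was at 77.6, 253 and 574 CPM in library 1 and 60.7, 255 and 484 in library 3. Tfrc, the transferrin receptor gene, was at 13.2, 63.2 and 141 CPM in library 1 and 13.1, 77.5 and 136 in library 3, although 131 of the 318 UMIs in members of library 3 came from 1 barcode. The one at least 2-fold lower was Cd40lg, whose product helps B cells and dendritic cells: it stood at 129, 41.2 and 116 CPM in library 1 and 119, 38.0 and 115 in library 3, so that members were the lowest class. Slamf1, an adhesion receptor gene, differed more between members and strong responders than between none and members, at 22.4, 47.3 and 503 CPM in library 1 and 21.3, 38.0 and 515 in library 3.

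Costimulators of the TNF receptor family came within 2-fold of strong responders. In each library 4 of 6 were at least 2-fold higher in members, namely Tnfrsf1b, Tnfrsf9, Tnfrsf4 and Tnfrsf18, and none of the 6 was 2-fold apart between members and strong responders. Tnfrsf9, which encodes 4-1BB, was at 6.27, 120.3 and 208 CPM in library 1 and 4.84, 102 and 181 in library 3. Tnfrsf4, which encodes OX40, was at 11.3, 41.5 and 65.5 CPM in library 1 and 10.4, 48.7 and 55.1 in library 3.

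The NF-kB list of 16 genes was higher in sum in members and higher again in strong responders, at 1498, 3018 and 6264 CPM in library 1 and 1592, 3036 and 6137 in library 3. Only 4 and 5 genes passed 2-fold in members, with Nfkb1, Relb, Nfkb2 and Nfkbid in both libraries. Nfkb1, the gene of the p105 precursor, was the most abundant gene of the list in members, at 292, 1215 and 2831 CPM in library 1 and 308, 1172 and 2752 in library 3. Nfkbid, which encodes a nuclear IkB protein, was at 16.8, 49.0 and 314 CPM in library 1 and 16.7, 43.6 and 314 in library 3, and most of its difference lay beyond the members.

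Feedback inhibitors of TCR and cytokine signaling were 2-fold higher in 7 of 15 and 10 of 16 measured genes, and only Socs3 was 2-fold lower, in both libraries. Cblb, an E3 ubiquitin ligase that restrains TCR signaling, was at 689, 1532 and 1720 CPM in library 1 and 779.7, 1656 and 1833 in library 3, nearly at the strong responders' level. Dusp5, an ERK phosphatase gene, was at 12.3, 109.9 and 219.8 CPM in library 1 and 11.0, 112 and 252 in library 3. Spry1, an ERK pathway inhibitor gene, was at 1.46, 32.2 and 184 CPM in library 1 and 1.19, 18.0 and 168 in library 3, higher in each class than in the one before. Immediate early genes outside the rule were mostly under 2-fold in members: 2 of 8 and 4 of 10 were 2-fold higher, Junb stood at 101, 170.2 and 353 CPM in library 1 and 138, 191 and 374 in library 3, and Fosl2 at 8.75, 23.2 and 143 CPM in library 1 and 11.2, 28.5 and 147 in library 3. In library 3 the log2 ratio of Fosl2 over none was 1.36, and 0.99 without the top barcode of each class.

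Genes of growth and metabolism were higher in members than in barcodes with none over whole lists. The Myc and nutrient uptake list stood at 268, 1184 and 2443 CPM in library 1 and 252, 1144 and 2350.3 in library 3, with 8 of 10 and 8 of 10 genes at least 2-fold higher, 0 lower, and median log2 ratios of 2.31 and 2.47. Slc7a1, a carrier of arginine and lysine, was at 58.1, 344 and 647 CPM in library 1 and 51.2, 321 and 649 in library 3. Myc itself was at 6.47, 41.7 and 202 CPM in library 1 and 5.69, 43.4 and 192 in library 3. Odc1, the first enzyme of polyamine synthesis, was at 47.6, 161 and 240.1 CPM in library 1 and 48.2, 236 and 227 in library 3, although 213 of the 968 UMIs of members in library 3 came from 1 barcode.

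Every measured gene of serine and one-carbon metabolism, 8 of 8 in each library, was at least 2-fold higher in members. In sum they stood at 200.4, 906 and 1473 CPM in library 1 and 192, 803 and 1448 in library 3. Psat1, which makes the serine precursor phosphoserine, was at 4.38, 89.6 and 157 CPM in library 1 and 4.69, 74.1 and 152 in library 3. Mthfd2, a mitochondrial folate enzyme gene, was at 27.4, 164 and 263 CPM in library 1 and 26.2, 126 and 275 in library 3. The next step was smaller: 1 of 8 and 3 of 8 genes were 2-fold above members, against 8 of 8 that were 2-fold above none in members.

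Ribosome biogenesis genes were 2-fold higher in 12 of 14 and 13 of 14 cases, with sums of 1322, 3297 and 5425 CPM in library 1 and 1284, 3120.1 and 5324 in library 3. Ncl, which encodes nucleolin, was at 342, 891 and 1439 CPM in library 1 and 341, 851 and 1483 in library 3, of which 681 of 3494 UMIs in library 3 came from 1 member. Among barcodes of 6000 to 12000 UMIs the sum of the list in library 3 was under 2-fold over none, at a log2 ratio of 0.93 against 1.28. Nolc1, a nucleolar chaperone gene, was at 36.1, 123 and 259 CPM in library 1 and 33.9, 109 and 249 in library 3. Chaperone genes of the heat shock list were 2-fold higher in 4 of 7 and 5 of 7. At that depth the sum of this list was at a log2 ratio of 0.81 and 0.65 over none, against 1.09 and 1.11 over all depths. Without the top barcode of each gene the sum in library 3 was at 0.82. Hsp90ab1 stood at 478, 1212 and 1498 CPM in library 1 and 456, 1189.7 and 1496 in library 3. None of 7 genes was 2-fold apart between them.

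Survival genes were as high in members as in strong responders for some and not for others. Bcl2, the antiapoptotic founder of its family, was at 127, 396 and 456 CPM in library 1 and 108, 504 and 500.5 in library 3, and the kinase gene Pim1 at 228, 713 and 728 CPM in library 1 and 234, 663 and 732 in library 3. Both had levels in members near those of strong responders. Bcl2l1, which encodes Bcl-xL, was at 19.3, 185 and 357 CPM in library 1 and 17.8, 142 and 371 in library 3, and Bcl2a1b at 14.0, 78.3 and 329.9 CPM in library 1 and 11.0, 71.4 and 301 in library 3, and these climbed further. Of the 8 genes of the list, 5 were 2-fold higher in members in each library.

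Other programs of activated cells had a smaller part of their genes 2-fold higher than the Myc, serine and ribosome lists. Over all genes the share was 8.87% in library 1 and 10.6% in library 3. Glycolysis genes were 2-fold higher in 1 of 10 and 4 of 11, and cholesterol synthesis genes in 0 of 12 and 4 of 12. The extra calls of library 3 come with 1 member that held 1346 of the 5213 glycolysis UMIs and 254 of the 1567 cholesterol UMIs. Cell cycle genes were 2-fold higher in 3 of 13 and 5 of 15. Cdk6 was among them at 46.1, 337 and 270.3 CPM in library 1 and 49.5, 259 and 299.8 in library 3, while Mki67 and Top2a, genes of dividing cells, passed 2-fold only in library 3, with 39 of 48 and 170 of 201 UMIs in 1 member. Cdkn1b, the gene of the inhibitor p27, was at 228, 114 and 37.5 CPM in library 1 and 214, 115 and 45.7 in library 3.

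Of 14 genes of the naive state and homing, 7 were at least 2-fold lower in members in each library, the same 7 in both, among them S1pr1, Lef1, Klf2, Il7r and Ly6c1. Ccr7 was the only one at least 2-fold higher. S1pr1, the receptor for exit from lymph nodes, was at 585, 199 and 61.6 CPM in library 1 and 583, 239 and 84.9 in library 3, and its activator Klf2 at 616, 263 and 80.8 CPM in library 1 and 554, 263 and 96.4 in library 3. Il7r, the receptor chain for the survival cytokine interleukin 7, was at 889.9, 262 and 59.5 CPM in library 1 and 833, 264 and 87.5 in library 3. Each of these 3 lay between the other classes in members. Tcf7, a transcription factor gene of naive and memory cells, was under 2-fold lower in members, at 1121, 683 and 236 CPM in library 1 and 1142, 664 and 267 in library 3, with its larger difference between members and strong responders.

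Interferon gamma response genes were lower in sum in members, by less than 2-fold (log2 ratios of -0.95 and -0.76), and lower again in strong responders. The 18 genes together stood at 3391, 1759 and 914 CPM in library 1 and 3882, 2285 and 1014 in library 3. At least 2-fold lower were 8 of 18 and 4 of 18, with median log2 ratios of -0.98 and -0.84. The 3 GTPase genes Igtp, Gbp7 and Gbp5 are described here, and their promoters are printed here because interferon-activated transcription factors are known to drive them. Igtp encodes an immunity-related GTPase, and Gbp7 and Gbp5 encode guanylate-binding proteins. The windows are the 250 bases before each gene's start, 5′ to 3′ on the gene's strand, from RefSeq on GRCm38.p6, at chr11:58199306-58199555, plus strand, chr3:142530086-142530335, plus strand and chr3:142496684-142496933, plus strand. Capitals mark matches, on either strand, to the interferon-stimulated response element (ISRE, searched as GAAA, any 2 bases, GAAA) and to the gamma-activated site (GAS, searched as TTCNNNGAA).
Igtp: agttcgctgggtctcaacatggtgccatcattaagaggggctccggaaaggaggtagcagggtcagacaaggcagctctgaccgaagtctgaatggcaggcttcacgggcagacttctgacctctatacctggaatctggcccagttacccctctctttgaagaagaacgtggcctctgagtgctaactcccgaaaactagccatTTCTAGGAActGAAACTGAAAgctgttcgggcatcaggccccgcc
Gbp7: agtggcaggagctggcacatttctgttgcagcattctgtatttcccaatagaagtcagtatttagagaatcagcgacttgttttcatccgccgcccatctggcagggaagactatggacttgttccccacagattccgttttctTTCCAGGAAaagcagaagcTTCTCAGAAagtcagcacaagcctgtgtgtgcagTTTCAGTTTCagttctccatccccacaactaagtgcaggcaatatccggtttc
Gbp5: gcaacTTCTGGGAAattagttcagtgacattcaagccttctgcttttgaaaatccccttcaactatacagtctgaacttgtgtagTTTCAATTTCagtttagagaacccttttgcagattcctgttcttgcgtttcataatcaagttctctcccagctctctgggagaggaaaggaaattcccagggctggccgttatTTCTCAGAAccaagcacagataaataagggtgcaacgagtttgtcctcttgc

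The Igtp window held 1 ISRE and 1 GAS match, Gbp7 held 1 and 2, and Gbp5 held 1 and 2. Among 32851 windows of the same length, 2.98% held an ISRE match and 7.02% a GAS match. Irgm1 (2 ISRE) and Gbp2 (1 ISRE) also had matches. Matches are letters, not shown to be bound, and none of the ISRE matches overlaps a GAS match in these 3 windows. Igtp stood at 249.7, 96.5 and 40.4 CPM in none, members and strong responders of library 1 and 262, 125 and 52.3 in library 3. Gbp7 was at 110.0, 54.5 and 35.6 CPM in library 1 and 136, 66.8 and 33.4 in library 3, and Irgm1 at 156, 73.1 and 24.8 CPM in library 1 and 170.5, 85.5 and 32.0 in library 3. All 3 were highest with none, lower in members and lowest in strong responders. Among barcodes of 6000 to 12000 UMIs they were still lower in members but by less than 2-fold in library 1: the log2 ratios over none were -0.89 for Igtp, -0.57 for Gbp7 and -0.51 for Irgm1, against -1.37, -1.01 and -1.09 over all depths. In library 3 Igtp and Gbp7 were under 2-fold there too, at -0.98 and -0.83 against -1.07 and -1.02. Gbp5, with the same kinds of match, was instead highest in members at 43.3, 76.2 and 34.3 CPM in library 1 and 67.7, 137 and 40.8 in library 3. Its log2 ratio of members over none was 0.82 (95% interval 0.61 to 1.02) in library 1 and 1.02 (95% interval 0.88 to 1.15) in library 3. With classes and levels both taken from counts thinned to 3000 UMIs, the ratio was -0.40 in library 1.

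Genes of the type I interferon response were low throughout, with sums of 113, 62.6 and 51.5 CPM in library 1 and 113, 73.3 and 50.2 in library 3 CPM, and 5 of 9 and 4 of 8 measured genes were 2-fold lower in members.

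As a sum, the cytokine list separated members from strong responders more than from barcodes with none. The list of 15 summed to 691, 715 and 1692 CPM in library 1 and 678, 706 and 1753 in library 3. The sum in members was thus close to that with none. Most of the sum with none was Ltb, at 572 and 559 CPM, which was lower in members. The sum therefore does not show the rise of less abundant genes of the list. The TNF family ligands Tnfsf8 and Tnfsf11 were higher in members, the first at 60.4, 258 and 649.9 CPM in library 1 and 80.5, 286 and 589.5 in library 3 and the other at 6.08, 38.3 and 137 CPM in library 1 and 4.95, 35.3 and 125 in library 3. Ltb, the most abundant gene of the list, was lower at 572, 360.1 and 352 CPM in library 1 and 559, 346 and 346 in library 3. Effector cytokines were at low levels in members: Tnf, although over 2-fold above none in both libraries, was at 3.94, 13.0 and 120.2 CPM in library 1 and 3.09, 8.77 and 114 in library 3, and the chemokine gene Ccl4 at 0.632, 2.61 and 206 CPM in library 1 and 0.781, 3.17 and 262 in library 3. Il2 had 25 UMIs in members of library 1, 15 of them in 1 barcode, and 8 UMIs in library 3. Of the measured cytokine genes, 9 of 11 and 10 of 12 were 2-fold higher in strong responders than in members.

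Genes of anergy and inhibition were mixed. Dgka, a diacylglycerol kinase that dampens TCR signaling, was lower in members at 856, 339 and 123 CPM in library 1 and 860.4, 364 and 164 in library 3. Izumo1r, the folate receptor 4 gene found on anergic and regulatory cells, was higher at 6.56, 35.9 and 97.7 CPM in library 1 and 5.32, 50.9 and 62.1 in library 3. Lag3 was low, with 20 and 35 UMIs in members (5.80 and 8.53 CPM against 1.56 and 2.75 with none). Pdcd1, which encodes PD-1, was at 11.4, 8.41 and 41.3 CPM in library 1 and 9.15, 7.80 and 36.9 in library 3, and so was high only in strong responders. The T helper lineage genes had 0 of 10 and 1 of 11 higher and 4 of 10 and 1 of 11 lower by 2-fold, with no gene lower in both libraries.

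Besides Slamf1, Nfkbid, Spry1 and Fosl2, the genes with the largest ratio of strong responders over members, among those also above none in members, were Gramd1b, a sterol transporter gene, and Hivep3, a zinc finger gene. Gramd1b was at 107, 369.6 and 2879 CPM in none, members and strong responders of library 1 and 104, 314 and 2766 in library 3. Hivep3 was at 31.2, 174 and 1064 CPM in library 1 and 28.4, 171 and 949.6 in library 3.

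Genes highest in members were few. Of 9310 genes, 21 (0.226%) were at least 2-fold above both barcodes with none and strong responders in both libraries. For 18 of these, among them S100a4, S100a6, Plac8 and Klf4, 1 barcode gave 25% or more of the members' UMIs in at least 1 library. The other 3 were Eomes, Hsf2 and Ston2, singled out after their values were seen. Hsf2, a heat shock transcription factor gene, was at 23.2, 52.2 and 20.6 CPM in library 1 and 23.0, 56.3 and 25.9 in library 3. Ston2, an endocytic adaptor gene, was at 8.22, 30.4 and 13.6 CPM in library 1 and 10.6, 39.5 and 15.7 in library 3. In library 1, classes and levels were also taken from thinned counts. The log2 ratio of strong responders over members then turned from -1.16 to 0.18 for Ston2, and the ratio of members over none went from 1.17 to 0.59 for Hsf2. Eomes, a transcription factor gene of effector and innate-like T cells, was at 1.12, 14.5 and 2.91 and 1.86, 14.4 and 3.09, from 20 members in each library. Mgmt, a DNA repair gene, came close at 11.7, 29.6 and 11.0 CPM in library 1 and 12.5, 23.6 and 10.5 in library 3.

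Members differed among themselves by which kind of response gene they held. Those with only Nr4a or Egr genes numbered 52 in library 1 (15.5%, interval 11.8 to 19.9) and 59 in library 3 (15.3%, interval 11.9 to 19.3). Those with only Irf4 and Il2ra numbered 105 and 108, and 178 and 218 held both kinds. In library 1, 714 of 5407 genes (13.2%) were 2-fold higher and 417 (7.71%) lower in the Irf4 and Il2ra members than in the Nr4a or Egr members. In library 3 these were 410 (7.31%) and 345 (6.15%) of 5608. The Nr4a or Egr members were also shallower, with medians of 8527.5 and 8468 UMIs against 10566 and 9962. The list counts per barcode below are thinned to equal depth, with the kinds as formed at full depth.

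Ccr7, Lad1 and the growth genes were highest in the Irf4 and Il2ra members. Ccr7 was at 230.2 CPM in Nr4a or Egr members, 857 in members with both kinds and 1242 in Irf4 and Il2ra members of library 1, and at 232, 720.0 and 1176 in library 3, an order of kinds kept below. The first of these equals the level in barcodes with none, 223 and 222, within its interval. Lad1 had 0 UMIs in the Nr4a or Egr members of library 1 and 5.35 CPM in library 3, against 196 and 154 CPM in the Irf4 and Il2ra members. Bcat1 was at 8.61, 109 and 168 in the 3 kinds of library 1 and 1.78, 81.8 and 135 in library 3. Psat1 was at 4.30, 96.4 and 113 CPM in library 1 and 17.8, 72.5 and 104 in library 3, and Mir155hg at 12.9, 332 and 499 CPM in library 1 and 73.1, 245 and 515 in library 3. Of the serine and one-carbon genes measured, 6 of 6 in library 1 and 5 of 7 in library 3 were 2-fold higher in the Irf4 and Il2ra members, and of the ribosome biogenesis genes 9 of 11 and 9 of 12.

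Il7r, Cd40lg, Ly6c1 and the interferon gamma list in sum were higher in the Nr4a or Egr members, and Ccr7 of the naive list lower. Il7r was at 701, 249 and 104 CPM in the 3 kinds of library 1 and 483, 253 and 182 in library 3, and Cd40lg at 103, 35.2 and 25.5 CPM in library 1 and 58.8, 41.8 and 20.5 in library 3. Ly6c1, a surface antigen gene, was at 394, 126 and 17.6 CPM in library 1 and 180.1, 118 and 102 in library 3. The interferon gamma list summed to 3141, 1665 and 1346 CPM in library 1 and 3005, 2379 and 1752 in library 3. Gbp5 again ran against its list, at 25.8, 63.4 and 118 CPM in library 1 and 71.3, 122 and 198 in library 3. These members were not simply at the level of barcodes with none. Cd5 was at 249.6, 268 and 230.2 CPM in library 1 and 216, 273 and 238 in library 3 in the 3 kinds, against 77.6 and 60.7 with none, and Nfkbid was highest in the Nr4a or Egr members at 90.4, 43.3 and 41.3 CPM in library 1 and 78.5, 40.5 and 33.3 in library 3. Fos had 8 and 9 UMIs in the Nr4a or Egr members (17.2 and 16.0 CPM) and 0 and 4 in the Irf4 and Il2ra members.

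**Figure D4:**
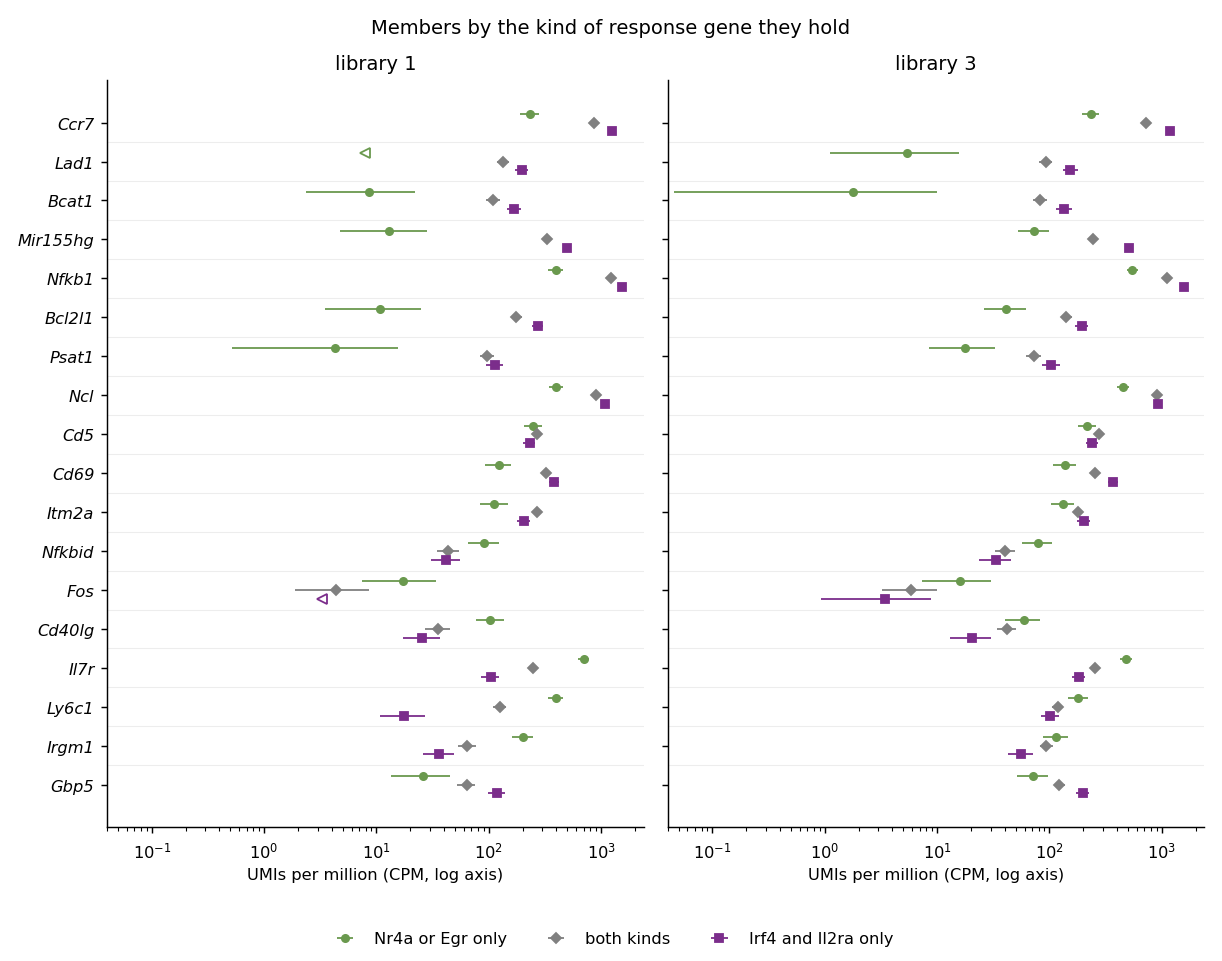
Level of 18 genes in CPM (x, log axis) in members holding only Nr4a or Egr genes (circles), both kinds (diamonds) or only Irf4 and Il2ra (squares), by library, with bars for exact Poisson 95% intervals and open triangles at the upper bound where no UMI was found. The genes from Ccr7 to Ncl are highest in the Irf4 and Il2ra members, Cd5 is alike in all 3 kinds, and those from Nfkbid to Irgm1 are highest in the Nr4a or Egr members.

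With list counts thinned to equal depth, members were spread between the other classes with wide overlap. Barcodes were thinned to 3000 UMIs, which left out 21 of 335 members in library 1 and 24 of 385 in library 3, and 146 and 212 barcodes with none. The Myc and nutrient uptake list had a median of 0 UMIs with none, 2 in members and 7 in strong responders, in both libraries. In members 37.3% and 34.6% lay above the 95th percentile of barcodes with none, 15.3% and 15.8% reached the strong responders' median, and 17.5% and 22.4% had no UMI of the list.

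The ribosome biogenesis list had medians of 4, 6 and 14 UMIs in none, members and strong responders of library 1 and 4, 6 and 13 in library 3. Above the 95th percentile of none were 4.08% and 7.69% of the Nr4a or Egr members, against 54.0% and 49.5% of the Irf4 and Il2ra members. The kinds thus differed on this list in thinned counts as well. The survival list reached the strong responders' median in 33.8% and 34.6% of members, a larger share than for the Myc and nutrient uptake list. The interferon gamma list had medians of 7, 3 and 1 in library 1 and 9, 4 and 1 in library 3, and no UMI of it was left in 17.2% and 12.2% of members against 2.36% and 2.01% of barcodes with none.

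**Figure D5:**
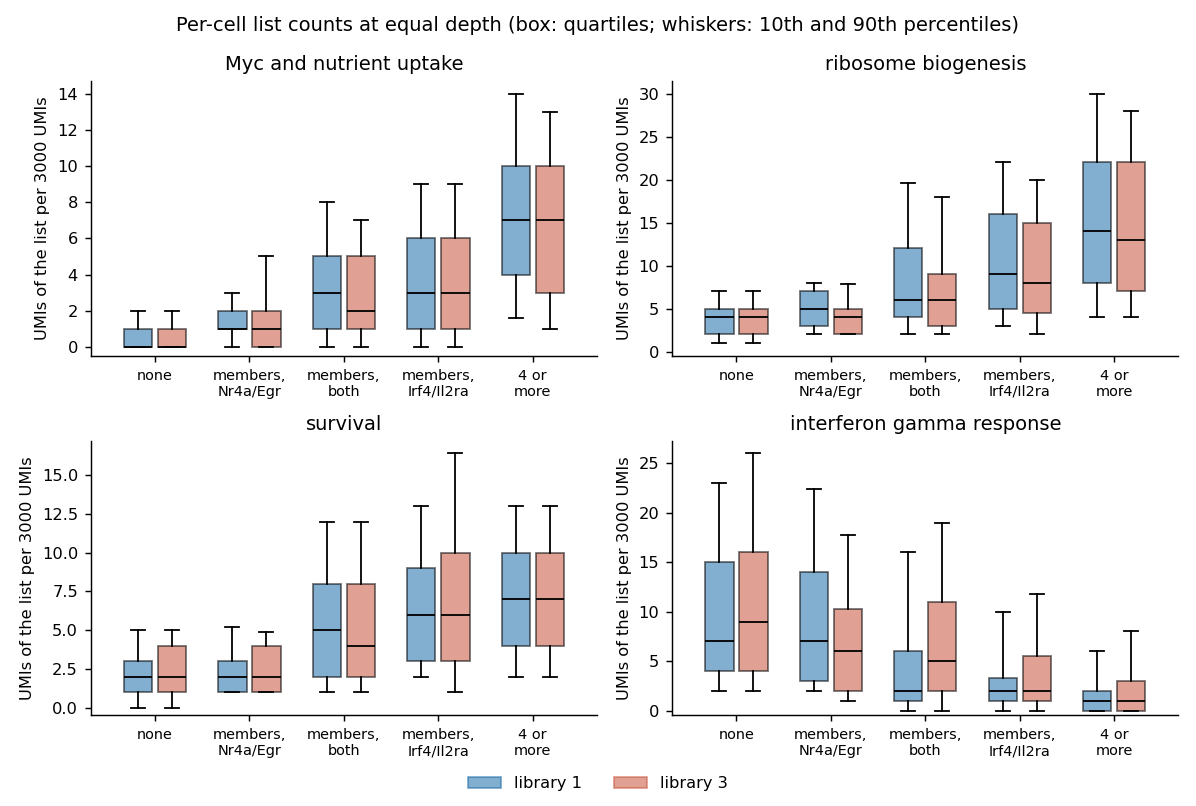
UMIs of 4 gene lists per barcode thinned to 3000 UMIs (y) in barcodes with none of the 8 genes, the 3 kinds of member and strong responders (x), with library 1 in blue and library 3 in red, boxes for quartiles, black lines for medians and whiskers for the 10th and 90th percentiles. The Nr4a or Egr members overlap barcodes with none in all 4 lists, and the Irf4 and Il2ra members lie between them and the strong responders.

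Markers of other cell types had a median of 0 CPM per barcode for the B, myeloid, innate-like, erythroid and fibroblast lists in both libraries. Medians and sums of the regulatory T cell, CD8 T cell, dendritic and epithelial lists are not given here. A count of 0 for Foxp3 does not exclude a regulatory T cell. Tnfrsf18, on the list of that type, was higher in members, at log2 ratios over none of 1.15 in library 1 and 1.24 in library 3. At least 10 UMIs of another type's markers were held by 8 members of library 1 (2.39%) and 9 of library 3 (2.34%), against 1.23% and 0.628% of barcodes with none. In library 3 the myeloid list summed to 309 CPM, with 706 of its 1268 UMIs in 1 barcode, and the fibroblast list to 106 CPM, with 412 of 435 UMIs in 1 barcode. In library 1 these sums were 14.2 and 10.4 CPM. The B list summed to 273 and 178 CPM, with 439 of 942 and 274 of 730 UMIs in 1 barcode each. Cd74, the MHC class II chaperone gene, was high in members (68.1 CPM in library 1 and 80.7 CPM in library 3) with 138 of 235 and 273 of 331 UMIs from 1 barcode each. S100a4 and Vim stood above none in members of library 3, with 216 of 230 and 433 of 481 UMIs in 1 barcode each, and below none once, for each gene, the barcode with most UMIs was left out. By the less extreme of the 2 libraries, hemoglobin genes had the largest ratios downward, as Hba-a1 at 341, 8.99 and 8.56 CPM in library 1 and 153, 12.4 and 448 in library 3, and a few barcodes with none carried most of them. Next came Pcsk1, Acpp, Rflnb and Ifit1bl1, of which Rflnb, an actin regulator gene, was the most abundant with none, at 205, 44.9 and 12.5 CPM in library 1 and 198, 51.2 and 19.6 in library 3.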

How the data were processed

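Single-cell libraries of OT-II CD4 T cells were deposited by the authors as 2 aggregated 10x matrices of UMI counts per gene (32285 genes) and barcode, with no normalization in the values. Cell Ranger 6.0.0 and the genome build mm10 are named in the submitters' processing notes, while the matrix files carry Cell Ranger 7.1.0, per the file headers. No column was left unmapped to a matrix (0), and no barcode ending was mapped to a sample. Members, gene lists and the rule for named genes were chosen with earlier results of these data known.

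Counts were summed per class and library and scaled to CPM, using Python 3.11.15, numpy 2.4.6, pandas 2.3.3 and scipy 1.17.1. Intervals are 95%, exact Poisson for CPM, exact binomial (Clopper-Pearson) for shares and exact conditional binomial for ratios. A gene was called at a ratio of 2 or more, or its inverse, with 0.5 added to both counts and at least 50 UMIs over both classes; library totals were 50382852 and 61279131 UMIs. The named genes were Ccr7, Lad1 and Itm2a, the 12 highest and 8 lowest over none and the 6 highest and 6 lowest over strong responders by the less extreme library, and the 3 most abundant of each list. The highest over none needed 50 UMIs in members, and the lowest needed 200 UMIs in barcodes with none. Other genes in the text are members of the lists and were chosen after their values were seen. The deposited matrices gave no doublet calls and no caller was run: leaving out the 6% deepest barcodes was an alternative, beside stricter cell filters (1000 UMIs, 500 genes, 5% mitochondrial), thinning to 3000 UMIs, depth windows, other scaling, weights, count filters, rules and controls. Calls were checked on simulated data, drawn from summed profiles without variation between cells. That check therefore does not cover calls that rest on a single barcode.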

Additional observations from a re-analysis of the deposited data

Results flagged for a closer look

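The rule left out barcodes with a UMI of Foxp3, the gene of regulatory T cells, with a UMI of Trdc, the constant segment of the gamma-delta receptor, or without a UMI of Cd3d, Cd3e or Cd3g. Each of these sets, which no comparison above uses, held barcodes with 2 or 3 of the 8 response genes above the share that a count of 0 allows. That limit is 3 counts of the total, so any count above 3 exceeds it. Among eligible barcodes the share was 8.21% and 7.50%. Among Foxp3 barcodes these were 27 of 127 in library 1 (21.3%, exact binomial 95% interval 14.5 to 29.4, against a limit of 2.36%) and 20 of 133 in library 3 (15.0%, interval 9.43 to 22.3, limit 2.26%). Among Trdc barcodes they were 54 of 1022 (5.28%, interval 3.99 to 6.84, limit 0.294%) and 64 of 1146 (5.58%, interval 4.33 to 7.08, limit 0.262%), below the eligible shares. Barcodes without a CD3 UMI had 40 of 432 (9.26%, interval 6.70 to 12.4, limit 0.694%) and 54 of 475 (11.4%, interval 8.66 to 14.6, limit 0.632%), with median depths of 964 and 1041 UMIs. Intervals and limits cover counting error only.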

How the results depend on the processing

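Each alternative but thinning changed 1 choice, and 2 of the 14, leaving out barcodes with markers of other cell types and leaving out the top barcode of each gene, were chosen after seeing the data. Under thinning to 3000 UMIs the classes were formed and the levels computed from thinned counts, and barcodes under 3000 UMIs dropped out. Of 185 values that were 2-fold or more (genes and lists over 2 contrasts and both libraries), between 175 and 185 kept their direction under each alternative and between 143 and 185 stayed at 2-fold or more. The fewest stayed when barcodes with 1 gene replaced those with none. The 2 alternatives on low counts cannot change a ratio, so their 185 of 185 was fixed in advance. Median of ratios scaling shifts all ratios of a contrast alike, too little to turn a 2-fold value. To the named genes were added Cd4, Cd40lg, Il7r, Gbp2, Gbp7, Igtp, Irgm1, Myc, Klf2 and Cd200. The contrast of strong responders with members held the lists and only the genes named as markers or by their ratio to strong responders. Paired values are library 1 and library 3, over both the comparison of members with none (first contrast) and of strong responders with members (second contrast). Members numbered 169 and 194 when a UMI of Cd4 was also required, 217 and 239 with exactly 2 genes, 118 and 146 with exactly 3, and 216 in library 1 among barcodes of 6000 to 12000 UMIs. The gene counts that follow are not shares: the number of genes tested can differ between alternatives and was not recorded. Without a filter on low counts the first contrast had 3874 and 6613 genes higher and 1814 and 1527 lower. The second had 1660 and 1599 higher and 3968 and 4520 lower. With at least 20 UMIs the second had 1349 and 1492 lower. With classes and levels from thinned counts, the first contrast had 1251 and 1083 lower, and the second 127 and 144 higher and 178 and 251 lower. Against barcodes with 1 gene there were 544 and 728 higher and 440 and 409 lower. In library 3 the higher count of the first contrast was 609 with Cd4, 806 with exactly 2 genes, 652 at 6000 to 12000 UMIs, 780 without barcodes with markers of other cell types, 767 without the 6% deepest and 791 without the top barcode of each gene, where the lower count was 1026. The lower count of the first contrast was 446 in library 1 with Cd4 and 1270 and 1199 with exactly 3 genes. In the second contrast the lower count was 477 and 341 with Cd4 and 469 in library 1 with exactly 3 genes, and the higher count 539 in library 3 with exactly 2. Of the 22 lists, 7 in library 1 and 6 in library 3 were 2-fold higher as a sum; library 1 had 3 with Cd4, 3 against 1 gene, 4 with exactly 2 genes and 4 with median of ratios scaling, and library 3 had 3 against 1 gene. Of the log2 values at 2-fold or more as reported, those that turned sign were these, each with its value as reported first. S100a4 over none in library 1 (3.14) became -1.77 after thinning, -0.72 at 6000 to 12000 UMIs, -0.31 without the deepest barcodes, -0.10 with exactly 3 and -1.09 without barcodes with other types' markers. Plac8 over none in library 1 (3.82) became -1.50 after thinning, -0.62 at 6000 to 12000 UMIs and -0.54 without the deepest barcodes. Ston2 from members to strong responders in library 1 (-1.16) became 0.18 after thinning. Hba-a2 over none in library 3 (-4.04) became 2.07 after thinning. Hba-a1 over none in library 3 (-3.61) became 2.18 after thinning. Hbb-bt over none in library 3 (-3.49) became 2.10 after thinning and 0.23 against 1 gene. Hbb-bs over none in library 3 (-3.29) became 1.43 after thinning and 0.13 at 6000 to 12000 UMIs. S100a4 over none in library 3 (2.64) became -1.14 after thinning, -1.27 at 6000 to 12000 UMIs, -1.41 without the deepest barcodes, -1.53 with Cd4, -0.41 as a mean of per-cell CPM, -1.04 with exactly 2 genes, -1.48 without barcodes with other types' markers and -1.17 without the top barcode. Vim over none in library 3 (2.41) became -1.26 after thinning, -1.03 at 6000 to 12000 UMIs, -1.19 without the deepest barcodes, -0.32 with Cd4, -0.51 as a mean of per-cell CPM, -0.57 with exactly 2 genes, -1.14 without barcodes with other types' markers and -0.84 without the top barcode. Plac8 over none in library 3 (4.20) became -0.90 after thinning, -0.69 at 6000 to 12000 UMIs, -1.15 without the deepest barcodes and -1.44 without barcodes with other types' markers. S100a4 from members to strong responders in library 3 (-2.61) became 0.48 at 6000 to 12000 UMIs, 0.28 without the deepest barcodes, 1.33 with Cd4, 1.07 with exactly 2 genes and 0.45 without the top barcode. S100a4 from members to strong responders in library 1 (-3.11) became 0.13 with exactly 3. Hba-a2 over none in library 1 (-5.25) became 0.46 against 1 gene. Hbb-bs over none in library 1 (-5.02) became 0.091 against 1 gene and 0.080 without barcodes with other types' markers. Hba-a1 over none in library 1 (-5.22) became 0.0053 without barcodes with other types' markers. Hbb-bt over none in library 1 (-5.16) became 0.20 without barcodes with other types' markers. Values under 2-fold as reported turned sign too. Over none in library 1, Vim (0.99) became -2.82 after thinning, -1.84 at 6000 to 12000 UMIs, -1.31 without the deepest barcodes and -0.94 without barcodes with other types' markers, Gbp5 (0.82) became -0.40 after thinning, and Isg15 (-0.59) became 0.26 against 1 gene. The cause of these shifts was not tested. Scaling by median of ratios subtracted 0.097 and 0.099 from every log2 ratio of the first contrast, and -0.068 and -0.066 from those of the second. These are medians over the genes with at least 50 UMIs in each class. No paired analysis was possible because no group has a replicate and neither library is tied to a sample. Lists with medians of 0 to 2 UMIs per thinned barcode do not order single cells.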

Other observations

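The same rule in the other barcode endings found few barcodes: 22 of 2443 eligible (0.901%) in ending 2 of matrix G, and 19 of 3153 (0.603%) and 15 of 3025 (0.496%) in endings 1 and 2 of matrix H. These barcodes are not tied to a sample either. In ending 2 of matrix G the deepest of the 22 held 186012 UMIs, against a median of 8766. It weighs heavily in every CPM given for that ending. In ending 1 of matrix H the deepest held 64159, against a median of 9634. Ccr7 stood at 98.7 CPM (interval 70.2 to 135), 298 (244 to 360.2) and 165 (107 to 243), against 186, 209 and 192 with none of the 8 genes. Lad1 had 0, 3 and 0 UMIs in them. Bcat1 stood at 53.1, 50.6 and 0 CPM in them, against 0.87, 0.74 and 0.49 with none, and Cd69 at 30.4, 78.7 and 145 CPM, against 20.2, 12.8 and 12.9. Cd4 was at 96.2, 75.9 and 296 CPM, against 251, 291 and 256 with none, and Il7r at 271, 466 and 1159, against 888, 730.3 and 783.

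Beside Trbv12, the segment Trbv26 took 21.1% of the members' Trbv UMIs in library 1 and 25.8% in library 3, and 20.6% and 29.7% in barcodes with none of the 8 genes. The Trav14 family, which holds the alpha chain segment of the OT-II receptor, took 12.1% of Trav UMIs in members of library 1 (23 of 190, interval 7.83 to 17.6) and 11.1% in library 3.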
